A study of Mus musculus with 13 samples.

Results

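The low-density lipoprotein (LDL) receptor family is a group of cell-surface receptors, and 9 of its genes were followed here across a mouse model of YAP1-driven brain tumours. The genes were taken by name from a list: Lrp1, Lrp1b, Lrp2, Lrp4, Lrp5, Lrp6, Lrp8, Vldlr and Sorl1, which are 9 of the 48795 genes in the table. RNA was sequenced from the right brain hemisphere, without olfactory bulb and cerebellum, of 13 mice at postnatal day 11, all on the C57BL/6J strain background. The nlsYAP5SA mice (n = 5) had the genotype NexCre +/- YAP5SAnls +/-: they carried a nuclear, phosphorylation-resistant form of YAP1, the transcriptional coactivator held back by the Hippo pathway, together with Cre recombinase expressed from the Nex (Neurod6) locus in the lineage of cortical and hippocampal pyramidal neurons. Control littermates (n = 5) were NexCre -/- YAP5SAnls +/- and so carried the silent transgene without Cre, and 3 wild-type C57BL/6 mice carried neither allele. No group carried Cre without the transgene, so the loss of a Nex allele and the action of YAP1 cannot be told apart in these mice. Each library held between 20871566 and 25524349 estimated counts.

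Receptors of this family share clusters of cysteine-rich ligand-binding repeats, EGF-like repeats and beta-propeller domains, a single membrane-spanning segment and a short cytoplasmic tail that recruits adaptors for endocytosis. In the brain they do different work. Lrp1 takes up apolipoprotein E, proteases and their inhibitors. Lrp2, also called megalin, is an endocytic receptor of absorptive epithelia, including the ependyma and choroid plexus, and of the embryonic neuroepithelium. Lrp8 and Vldlr receive the reelin signal that positions migrating neurons, Lrp5 and Lrp6 are co-receptors for Wnt ligands, Lrp4 binds agrin and restrains Wnt signalling, and Sorl1 sorts the amyloid precursor protein between endosome and Golgi.

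Of the 9 members, 1 rose in nlsYAP5SA hemispheres and none fell. Lrp2 was 10.6-fold higher than in control, from a very low level, while the other 8 members differed by less than 1.3-fold and did not pass the test. In the same comparison 10.8% of the 16315 genes tested passed an adjusted p of 0.05 (edgeR, quasi-likelihood test, Benjamini-Hochberg), 7.36% as higher and 3.44% as lower, so that 1 call among 9 members is close to the share over all genes. By mean, 6 members were higher and 3 lower, and the median log2 fold change of the members was 0.06, beside -0.01 over all genes tested. The samples of both groups did not overlap for 1 member, against 10.1% of all genes. An unadjusted p of 0.05 or less was found for 3 members (Lrp2, Lrp4 and Lrp5), against 24.4% of all genes.

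**Figure D1:**
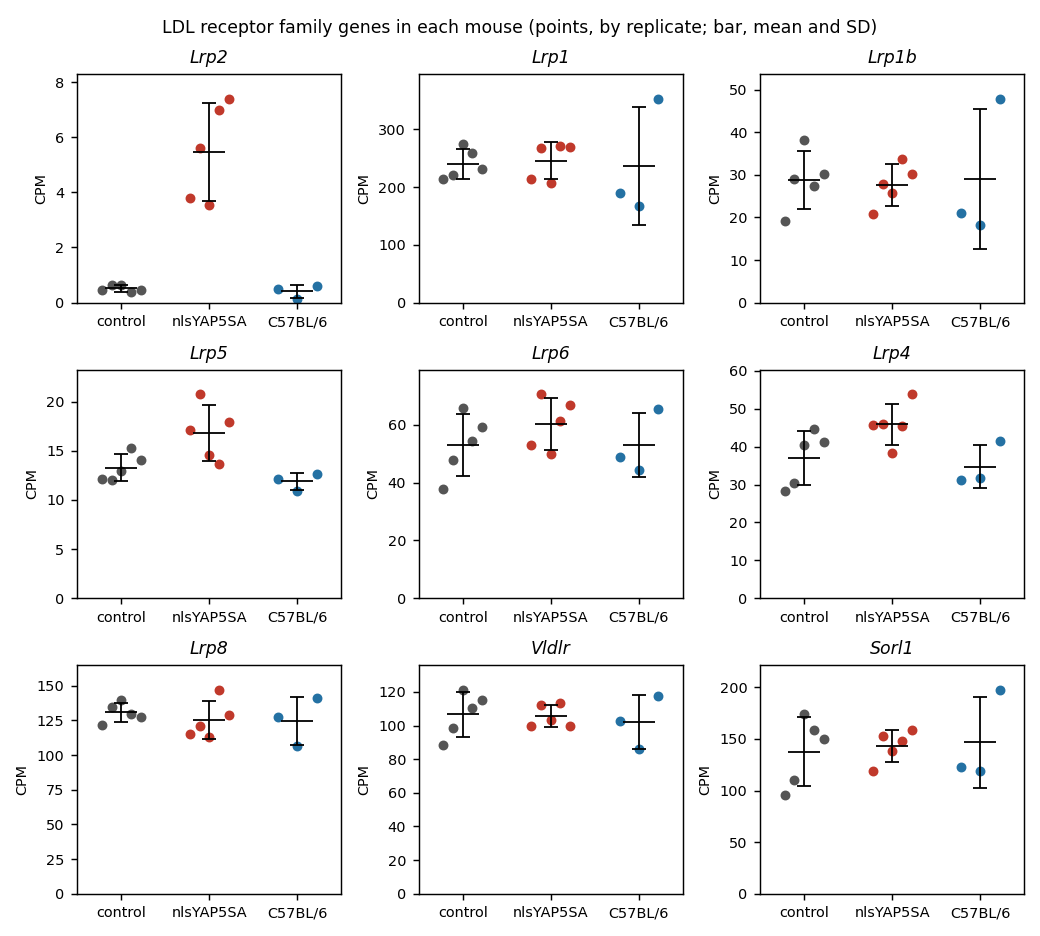
Level of each LDL receptor family gene in CPM for every mouse, grouped as control, nlsYAP5SA and C57BL/6, with the group mean and SD as bars; each panel has its own axis from 0. All 5 nlsYAP5SA mice lie above all other mice for Lrp2, and the control and nlsYAP5SA points overlap for the 8 remaining genes.

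Lrp2 (ENSMUSG00000027070) lies on the minus strand of chromosome 2, at 69424340 to 69586065 of GRCm38, and is a protein-coding gene whose longest annotated transcript has 15460 bases. Since the data bear most on this gene, the 214 bases just upstream of its annotated start sites are shown, read on the minus strand from the RefSeq promoter table of GRCm38.p6 (chr2:69586066-69586279), with CpG dinucleotides in capitals.
Lrp2: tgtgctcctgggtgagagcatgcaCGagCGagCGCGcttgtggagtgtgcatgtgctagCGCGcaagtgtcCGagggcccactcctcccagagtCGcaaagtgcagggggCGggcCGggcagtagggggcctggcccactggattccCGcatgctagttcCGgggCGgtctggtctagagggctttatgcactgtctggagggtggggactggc
The stretch had a GC content of 65.9% and 13 CpG dinucleotides. The core letters bound by TEAD factors, the DNA-binding partners of YAP1, are GGAATG on 1 strand and CATTCC on the other, and neither was found in this stretch. Over the same 214 bases before the start site, 11.2% of the 32851 promoter windows of the table held these letters on either strand, and 12.6% did over the whole upstream part of 250 bases. RefSeq windows were listed for 5 of the 9 members (Lrp1, Lrp2, Lrp8, Sorl1 and Vldlr), 9 windows in all, and the letters occurred in the 250 upstream bases of 1 of them, a window of Lrp8. These matches describe the letters of short windows and carry no information on binding.

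Levels are given in CPM, the counts of a gene scaled to the TMM-normalised library size. In the controls Lrp2 was at 0.450, 0.626, 0.625, 0.378 and 0.472 CPM, which were 9 to 16 counts per library. In nlsYAP5SA mice it was at 3.80, 5.603, 3.55, 7.001 and 7.40 CPM, or 82 to 161 counts. In C57BL/6 mice it was at 0.493, 0.144 and 0.606 CPM, or 3 to 15 counts. The lowest nlsYAP5SA mouse was therefore above the highest mouse of either other group, and control and C57BL/6 overlapped. Group means were 0.510 ± 0.111 CPM (SD, n = 5) in control, 5.47 ± 1.77 CPM (SD, n = 5) in nlsYAP5SA and 0.414 ± 0.241 CPM (SD, n = 3) in C57BL/6. Against control the log2 fold change of Lrp2 was 3.40 (SE 0.26, approximate 95% interval 2.88 to 3.92) with an adjusted p of 6.4e-06 in edgeR's quasi-likelihood test. Ordered by fold change, Lrp2 was at place 23 among the genes tested. Against C57BL/6 its log2 fold change was 3.66 (SE 0.42, interval 2.84 to 4.48), a 12.6-fold difference with an adjusted p of 0.0011 by the same edgeR test. The 10 control and nlsYAP5SA mice were littermates from only 2 matings, the labels do not tie a mouse to a litter, and p-values here measure the spread between these mice. With DESeq2's prior on fold changes the log2 fold change against control shrank to 1.86, with an adjusted p of 6.24e-30. Lrp2 passed the filter on low counts through the nlsYAP5SA group only: 4 of 5 controls and 2 of 3 C57BL/6 mice reached 10 counts, and with a filter that asked for 10 counts in every sample it was not tested.

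Lrp2 is known from ciliated and choroid plexus epithelium, so markers of these cells were read beside it. The summed level of 15 choroid plexus genes was 125 to 375 CPM in control, 125 to 566 CPM in nlsYAP5SA and 144 to 506 CPM in C57BL/6, and 3 of the 15 genes rose in nlsYAP5SA (Folr1, Cldn2 and Steap1) with none lower and a median log2 fold change of 0.82. Ttr, the transthyretin gene that dominates choroid plexus RNA, varied from 0.822 to 217 CPM in control and from 0.783 to 276 CPM in nlsYAP5SA. The sum rested mainly on Enpp2 and Ttr, with means of 161 and 145.5 CPM in nlsYAP5SA. No other gene of the list averaged above 6.514 CPM in that group. The nlsYAP5SA mouse with the lowest choroid plexus sum (replicate 4, 124.7 CPM, with Ttr at 0.783 CPM) had Lrp2 at 7.001 CPM. C57BL/6 replicate 3, with a choroid plexus sum of 506 CPM, had Lrp2 at 0.606 CPM. With the level of Ttr as a covariate the log2 fold change of Lrp2 was 3.58, with an adjusted p of 9.88e-06 in the edgeR test. The summed level of 12 ciliated ependymal genes was 20.95 to 41.8 CPM in control, 38.1 to 43.8 CPM in nlsYAP5SA and 29.5 to 32.3 CPM in C57BL/6, and 2 of the 11 genes tested rose (Foxj1, the regulator of motile cilia, and Ak7) with a median log2 fold change of 0.58. The control with the highest ependymal sum (replicate 1, 41.8 CPM) had Lrp2 at 0.450 CPM, and the nlsYAP5SA mouse with the lowest (replicate 4, 38.1 CPM) had 7.001 CPM. Only control replicate 1 reached the nlsYAP5SA range of this sum. The remaining controls, at 20.95 to 32.9 CPM, and all C57BL/6 mice lay below that range. Apart from control replicate 1, the ependymal sum thus set the nlsYAP5SA mice apart, as Lrp2 did. Foxj1 was at 5.84 to 11.4 CPM in control and 12.7 to 14.5 CPM in nlsYAP5SA, without overlap. None of the genes of these lists was at 0 in all mice. The part of choroid plexus or ependymal cells in the Lrp2 result was not tested, and the Ttr covariate covers a single gene of its list. In bulk tissue fewer cells of a type and less RNA per cell cannot be told apart, and the same holds for more.

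**Figure D2:**
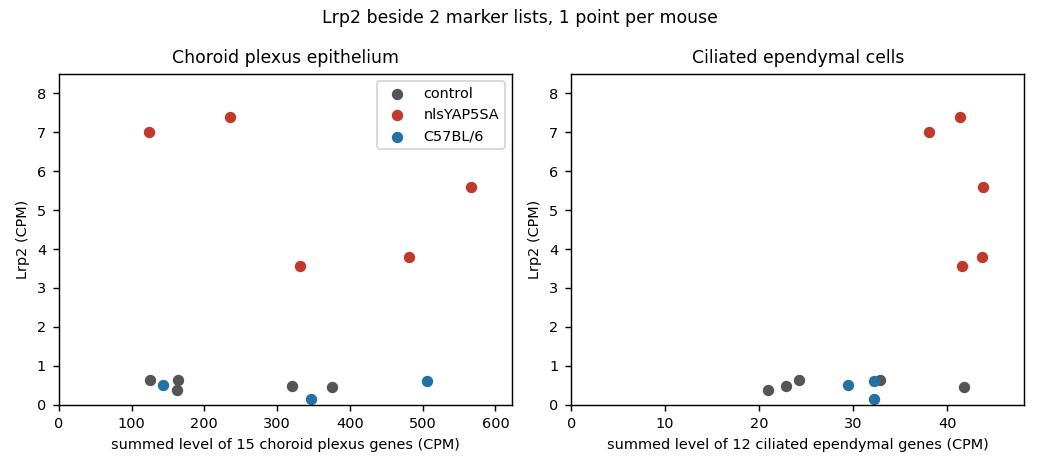
Lrp2 in CPM on the vertical axis against the summed CPM of 15 choroid plexus genes (left) and 12 ciliated ependymal genes (right), 1 point per mouse, coloured by group. The nlsYAP5SA mice lie between 3.55 and 7.40 CPM of Lrp2 across the whole range of choroid plexus sums, and the control with the highest ependymal sum lies at 0.450 CPM of Lrp2.

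Transcripts of Y-linked genes were present in all 5 controls, in 2 of 5 nlsYAP5SA mice and in 2 of 3 C57BL/6 mice, so sex differed between the groups. The nlsYAP5SA mice with Y-linked transcripts had Lrp2 at 3.55 and 7.001 CPM, and those without had 3.80, 5.603 and 7.40 CPM. With only the mice that carried Y-linked transcripts the log2 fold change of Lrp2 was 3.35 against control, with an adjusted p of 0.00067 by edgeR. Against C57BL/6 it was 3.24 in these mice, with an adjusted p of 0.0433. Whether sex had a part in the level of Lrp2 was not tested.

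The genes whose profile over the 13 mice was closest to that of Lrp2 were Vgll3, Thbs1, A2m, Angpt4 and Arsi, in that order. Their root mean square difference from Lrp2, on centred log2(CPM + 0.5) values, ran from 0.25 for Vgll3 to 0.32 for Arsi. Lrp2 was itself near 0.5 CPM outside nlsYAP5SA, so the added 0.5 lessened its change on this scale. The edgeR log2 fold changes of the 5 genes ran from 2.65 (A2m) to 4.23 (Angpt4), beside 3.40 for Lrp2. Vgll3, a cofactor of TEAD transcription factors, had 3.17 ± 0.581 CPM in control, 21.9 ± 2.37 CPM in nlsYAP5SA (SD, n = 5 each) and 3.12 ± 1.116 CPM in C57BL/6 (SD, n = 3). Angpt4, an angiopoietin that signals to blood vessels, had 0.150 ± 0.0440 CPM in control and 2.94 ± 0.798 CPM in nlsYAP5SA (SD, n = 5 each), with at most 5 counts in any control. It passed the filter on low counts through the nlsYAP5SA group only. Arsi, a gene of the sulfatase family, had 1.40 ± 0.260 CPM in control and 9.19 ± 2.51 CPM in nlsYAP5SA (SD, n = 5 each). Thbs1 encodes thrombospondin 1 and A2m encodes the protease inhibitor alpha-2-macroglobulin, and both belong to the ligand lists described further on. For each of these 5 genes every nlsYAP5SA mouse was above every control, and each passed edgeR's test with an adjusted p of 1.59e-05 or less. The search was made on the same 13 mice as the comparison, so it describes the pattern and is no separate evidence for it.

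Lrp1 (ENSMUSG00000040249, chromosome 10, 127538161 to 127621148, minus strand) is the large endocytic receptor of neurons, glia and vascular cells. It was at 214, 220.1, 275, 258 and 232 CPM in control and at 213.5, 268, 207, 272 and 269.7 CPM in nlsYAP5SA, and the ranges of both groups largely coincided. In C57BL/6 it was at 189, 166 and 353 CPM, so that these 3 mice spanned a wider range than the 10 others. The log2 fold change of Lrp1 was 0.04 (interval -0.15 to 0.23) in nlsYAP5SA against control, -0.02 (interval -0.45 to 0.41) in C57BL/6 against control and 0.04 (interval -0.40 to 0.48) in nlsYAP5SA against C57BL/6. Lrp1b (ENSMUSG00000049252, chromosome 2, 40595246 to 42653624, minus strand) is its close relative, which internalises more slowly. Lrp1b was at 19.3 to 38.3 CPM in control with a median of 29.2 CPM, at 20.7 to 33.7 CPM in nlsYAP5SA with a median of 27.9 CPM, and at 21.1, 18.2 and 48.0 CPM in C57BL/6. Its log2 fold change against control was -0.06 (interval -0.38 to 0.26) in nlsYAP5SA and 0.02 (interval -0.59 to 0.63) in C57BL/6. C57BL/6 replicate 3 had the highest level of all 13 mice for both genes. A processed pseudogene, Gm13461, lies within Lrp1b on the same strand with at most 92.6 counts in a library, where Lrp1b had at least 379.

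Lrp5 (ENSMUSG00000024913, chromosome 19, 3584828 to 3686564, minus strand) and Lrp6 (ENSMUSG00000030201, chromosome 6, 134446476 to 134566965, minus strand) bind Wnt ligands together with Frizzled receptors. Lrp5 was at 12.1, 12.02, 12.9, 15.2 and 14.1 CPM in control, at 17.1, 20.8, 14.5, 13.7 and 17.9 CPM in nlsYAP5SA and at 12.2, 10.9 and 12.6 CPM in C57BL/6. The nlsYAP5SA mice overlapped the controls in replicates 3 and 4 and were all above the 3 C57BL/6 mice. Against control the log2 fold change of Lrp5 was 0.34 (SE 0.12, interval 0.11 to 0.56) with an adjusted p of 0.0851, and against C57BL/6 it was 0.48 (SE 0.14, interval 0.21 to 0.76) with an adjusted p of 0.0728, both by edgeR's quasi-likelihood test and both short of the threshold. With GC content and length of the transcripts entered as an offset, Lrp5 passed against control at an adjusted p of 0.045 (ordinary loess) and 0.0308 (robust loess), and without nlsYAP5SA replicate 4 at 0.0367. Against C57BL/6 it passed under 6 of 21 alternatives: DESeq2 without (0.0224) and with its prior (0.0225), all 13 samples in a single edgeR fit (0.0283), the same offsets (0.0418 and 0.0381) and without nlsYAP5SA replicate 4 (0.0401), all adjusted p-values. Over the 21 alternatives its log2 fold change against C57BL/6 ran from 0.18 to 0.56. The nlsYAP5SA mice without Y-linked transcripts were those with 17.1, 20.8 and 17.9 CPM of Lrp5, and with only the mice that carried them the log2 fold change was 0.08 against control and 0.18 against C57BL/6, the latter with an adjusted p of 0.982 by edgeR. Whether sex had a part in the level of Lrp5 was not tested. Lrp6 was at 37.7, 48.0, 65.8, 54.3 and 59.4 CPM in control and at 53.0, 70.7, 49.9, 61.3 and 67.1 CPM in nlsYAP5SA, and was at 44.4 to 65.5 CPM in C57BL/6. These groups overlapped widely. The log2 fold change of Lrp6 against control was 0.19 (interval -0.08 to 0.45) in nlsYAP5SA and 0.00 (interval -0.36 to 0.35) in C57BL/6. The former was 0.09 without control replicate 1 and 0.06 between mice with Y-linked transcripts.

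Lrp4 (ENSMUSG00000027253, chromosome 2, 91457511 to 91513779, plus strand) is the agrin receptor of the neuromuscular junction and is also expressed by glia and neurons. It was at 28.3, 30.3, 40.5, 44.5 and 41.2 CPM in control, at 45.8, 46.0, 38.4, 45.5 and 53.9 CPM in nlsYAP5SA and at 31.2, 31.7 and 41.4 CPM in C57BL/6. Of the nlsYAP5SA mice, 4 were above every control and replicate 3 was inside the control range. The log2 fold change of Lrp4 was 0.31 (SE 0.12, interval 0.07 to 0.56) against control with an adjusted p of 0.139, and 0.38 (SE 0.13, interval 0.14 to 0.63) against C57BL/6 with an adjusted p of 0.109, by edgeR's quasi-likelihood test. With the offset for GC content and length the adjusted p against control was 0.0297 (ordinary loess) and 0.0203 (robust loess). Against C57BL/6 Lrp4 passed with these offsets and without C57BL/6 replicate 3. Between mice with Y-linked transcripts the log2 fold change was 0.18 against control and 0.20 against C57BL/6, with edgeR adjusted p-values of 0.841 and 0.988.

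Lrp8 (ENSMUSG00000028613, chromosome 4, 107802261 to 107876840, plus strand), also known as apolipoprotein E receptor 2, and Vldlr (ENSMUSG00000024924, chromosome 19, 27216484 to 27254231, plus strand), the very-low-density lipoprotein receptor, are the reelin receptors. Lrp8 was at 122, 134.5, 139.8, 129.7 and 127.5 CPM in control and at 115.3, 121, 113.3, 147 and 129 CPM in nlsYAP5SA, and the nlsYAP5SA mice extended both below and above the controls. Its log2 fold change was -0.06 (interval -0.20 to 0.08) against control. Lrp8 had the smallest coefficient of variation of the 9 members among controls, 5.22%. Vldlr was at 88.3, 98.4, 121, 111 and 115 CPM in control and at 99.6, 112, 103.5, 113.5 and 99.5 CPM in nlsYAP5SA, which lay inside the control range. Its log2 fold change was -0.02 (interval -0.17 to 0.14) against control and 0.03 (interval -0.16 to 0.23) against C57BL/6. An antisense transcript, Lrp8os2, overlaps Lrp8 with at most 36 counts in a library, against at least 2219 for Lrp8.

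Sorl1 (ENSMUSG00000049313, chromosome 9, 41964720 to 42124297, minus strand) combines the ligand-binding repeats of the family with a VPS10 domain. It was at 95.2, 111, 174, 158 and 150.3 CPM in control, at 119, 153, 138, 148 and 159 CPM in nlsYAP5SA and at 123, 119 and 198 CPM in C57BL/6. The controls spread most of the members' control groups, with a coefficient of variation of 24.2%, and held the lowest Sorl1 value of the 13 mice. Its log2 fold change was 0.06 (interval -0.23 to 0.34) in nlsYAP5SA and 0.09 (interval -0.35 to 0.53) in C57BL/6, each against control.

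**Figure D3:**
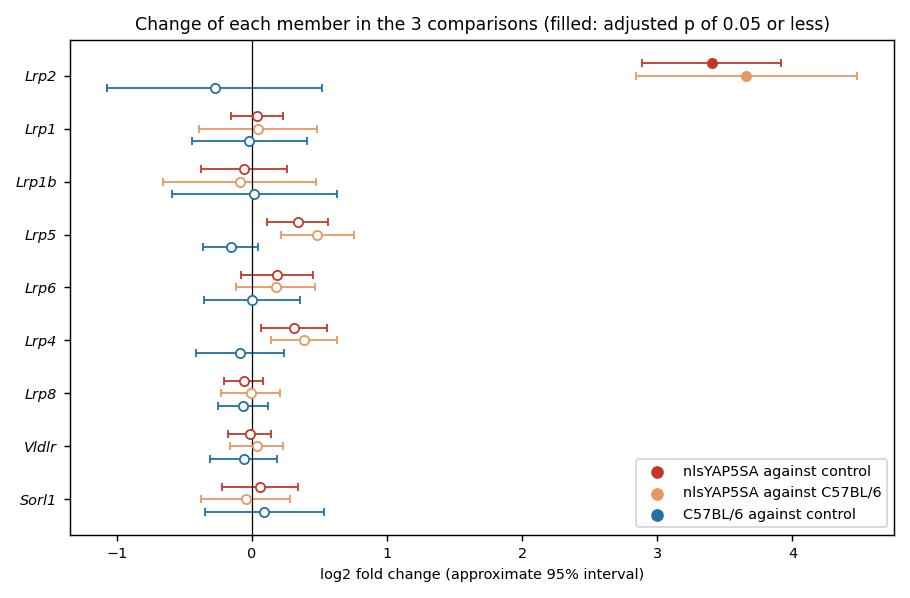
log2 fold change of each member with its approximate 95% interval in the 3 comparisons, which share groups of mice; filled points passed an adjusted p of 0.05. Lrp2 is filled against control (3.40) and against C57BL/6 (3.66), and no point is filled for C57BL/6 against control.

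C57BL/6 mice were compared with the transgene-bearing controls to see whether the silent transgene or the breeding of the littermates went with different levels. None of the 9 members passed in edgeR's test (0 also at an unadjusted p of 0.05, and 0 by DESeq2), where 0.169% of 16546 genes passed and 3.78% reached 0.05 before adjustment. The members' median log2 fold change was -0.06, beside 0.00 over all genes, with 2 members higher by mean and 7 lower, and no member separated these groups, as 3.34% of all genes did. With 3 C57BL/6 mice the intervals were wide: that of Lrp2 ran from -1.07 to 0.52 around -0.28. In nlsYAP5SA against C57BL/6, which shares its nlsYAP5SA mice with the main comparison, 1 of 9 members passed (Lrp2), where 6.38% of 16641 genes did. For Lrp2 and Lrp5 all nlsYAP5SA mice lay above all C57BL/6 mice, against 8.71% of all genes, and the median of the members was 0.04.

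Levels of different genes were compared per kilobase of the longest annotated transcript. In control, Lrp8 was highest at 19.7 ± 1.03 CPM per kb (SD, n = 5), followed by Lrp1 at 16.1 ± 1.76, Vldlr at 13.4 ± 1.68 and Sorl1 at 12.9 ± 3.11 CPM per kb. Each of these 4 genes overlapped its neighbour in that order. Lrp6 at 5.66 ± 1.15 and Lrp4 at 4.66 ± 0.909 CPM per kb formed a lower pair that overlapped, as did Lrp1b at 1.77 ± 0.418 and Lrp5 at 1.49 ± 0.155 CPM per kb. Lrp2 was last at 0.0330 ± 0.00718 CPM per kb. The steps after the fourth, the sixth and the eighth place were free of overlap between mice. In nlsYAP5SA Lrp2 reached 0.354 ± 0.115 CPM per kb (SD, n = 5) and was still the lowest member, with Lrp1b above it at 1.70 ± 0.299 CPM per kb. Vldlr and Sorl1 changed places, and so did Lrp1b and Lrp5, without separating in either case. When lengths were taken over the union of all exons, the first place went to Lrp1 at 13.5 ± 1.48 CPM per kb in control, with no overlap after the same places.

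The members are long genes, and the median of the 8 members other than Lrp2 varied between mice within each group. The longest transcripts of all 9 members had 6627 to 16294 bases with a median of 9368 bases, where the median over genes tested was 3307 bases and 10.5% of genes had a transcript at least as long as the shortest member. Control replicate 1 had 0 of the 8 members other than Lrp2 above their mean over the 13 mice, and C57BL/6 replicate 2 also had 0. Control replicate 3, nlsYAP5SA replicates 2, 4 and 5 and C57BL/6 replicate 3 had 7 of 8 above. The median deviation of these 8 members was -0.35 in control replicate 1 and 0.21 in control replicate 3 on the log2(CPM + 0.5) scale. The median of 921 other genes with transcripts of 8 kb or more was -0.31 and 0.22 in these mice, and that of 3661 genes with transcripts under 2 kb was 0.18 and -0.11. In C57BL/6 replicates 2 and 3 the members were at -0.30 and 0.21, long transcripts at -0.34 and 0.30, and short transcripts at 0.17 and -0.17. The members' median thus lay on the same side as that of long transcripts and opposite that of short ones in these 4 libraries, though 1 member of 8 was below its own mean in control replicate 3 and in C57BL/6 replicate 3. The part of transcript length in the members' levels was not tested beyond the offset described for Lrp4 and Lrp5.

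**Figure D4:**
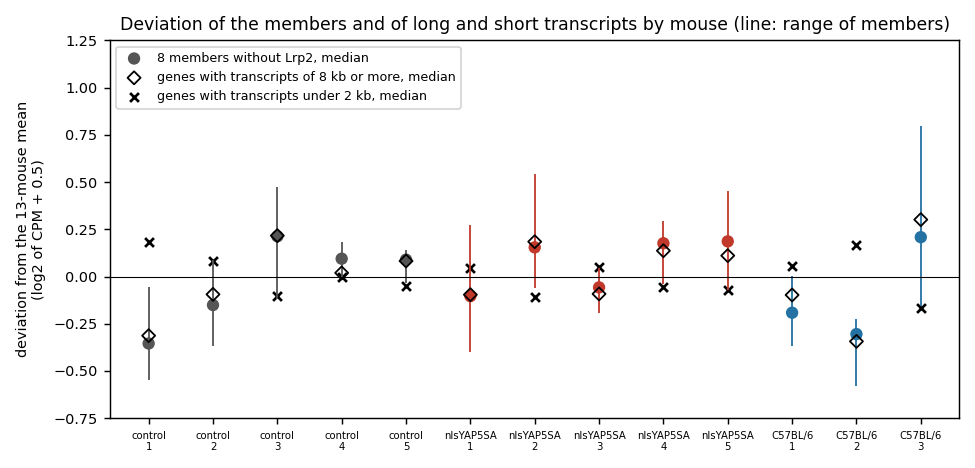
Deviation of each mouse from the mean over 13 mice, in log2(CPM + 0.5), for the median of the 8 members other than Lrp2 (filled circles; vertical lines give the range of members), for genes with transcripts of 8 kb or more (diamonds) and under 2 kb (crosses). Circles and diamonds lie on the same side of 0 in each mouse, for example at -0.35 and -0.31 in control replicate 1 and at 0.21 and 0.30 in C57BL/6 replicate 3.

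Genes that work with the receptors were read from 9 lists of ligands, adaptors and pathway partners, 134 genes in all. Of 128 tested, 24 rose and 7 fell in nlsYAP5SA, which is 24.2% against 10.8% of all genes by edgeR's test at an adjusted p of 0.05, and their median log2 fold change was 0.01. The lists were chosen with earlier results of these data known, so this share describes them and is no test of an excess. No listed gene passed in C57BL/6 against control. The number called in nlsYAP5SA against control was 9 when the Y-linked level was a covariate, 7 with only mice that carried Y-linked transcripts (2 of the nlsYAP5SA mice) and 20 without nlsYAP5SA replicate 5. Over all genes the calls were 542 and 334 in the first pair of these settings, and 1210 without that mouse, against 1761.

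Endocytic ligands and lipoproteins, the cargo of Lrp1, Lrp1b and Vldlr, changed most often: 12 of 23 tested rose and 3 fell, with a median log2 fold change of 0.26. A2m, the protease inhibitor that Lrp1 clears, rose from 4.93 ± 0.771 to 31.0 ± 4.52 CPM (SD, n = 5 each), or by 2.65 on the log2 scale (SE 0.13, edgeR adjusted p of 1.77e-07). Lgals3, a galactose-binding lectin of phagocytes, rose from 0.661 ± 0.227 to 3.87 ± 1.14 CPM (edgeR adjusted p of 8.94e-05). In both genes no nlsYAP5SA mouse overlapped a control. Apoe, the main apolipoprotein of brain and a product of astrocytes and microglia, rose from 1022 ± 68.8 to 1328 ± 203 CPM, 0.37 on the log2 scale (edgeR adjusted p of 0.027), with overlap between the groups. Clu, another secreted lipoprotein component, rose from 322 ± 22.2 to 459 ± 36.2 CPM without overlap. The genes that fell were Lpl (lipoprotein lipase), Ptn (pleiotrophin) and Calr (calreticulin), with log2 fold changes of -0.34, -0.33 and -0.24. App, the amyloid precursor, had the highest mean CPM of this list over the 13 mice and was at 1212 ± 72.3 CPM in control and 1285 ± 53.4 CPM in nlsYAP5SA (SD, n = 5 each; edgeR adjusted p of 0.348).

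**Figure D5:**
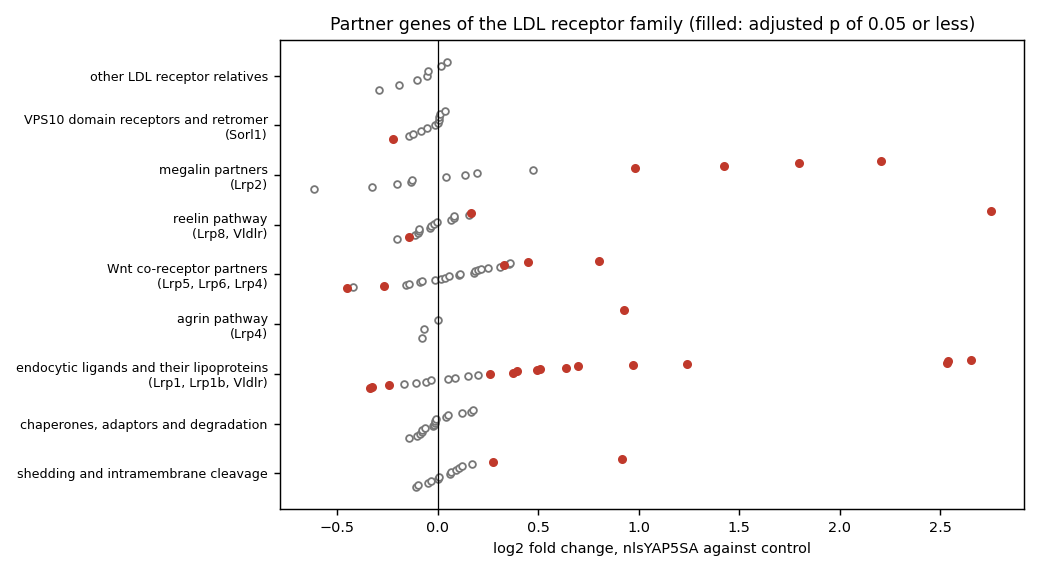
log2 fold change in nlsYAP5SA against control for each tested gene of the 9 partner lists, 1 row per list; filled points passed an adjusted p of 0.05 in edgeR's test. The endocytic ligands hold 12 filled points to the right of 0 and 3 to the left, and the relatives and the chaperones hold none.

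Megalin partners are the ligands and adaptors of Lrp2, and 4 of 13 rose with none lower and a median of 0.14. Their summed level in nlsYAP5SA replicate 4, 226.5 CPM, lay inside the control range of 214 to 246 CPM. The other nlsYAP5SA mice were at 332 to 374 CPM. Folr1, a folate receptor of choroid plexus that megalin can take up, rose from 0.936 ± 0.965 to 4.32 ± 0.908 CPM (SD, n = 5 each), or by 2.203 on the log2 scale (edgeR adjusted p of 0.0133), and is also one of the choroid plexus markers above. The metallothioneins Mt2 and Mt1, metal-binding proteins that megalin internalises, rose by log2 fold changes of 1.796 (adjusted p of 0.0025) and 1.42 (adjusted p of 0.00505) by edgeR, with overlap between the groups. Bmp4, a bone morphogenetic protein bound by megalin in the forebrain, rose from 8.11 ± 1.22 to 16.01 ± 1.70 CPM without overlap (edgeR adjusted p of 0.000147). Mt3, with the highest mean CPM of the list, was at 77.0 ± 7.24 CPM in control and 79.3 ± 8.86 CPM in nlsYAP5SA. Cubn, the co-receptor cubilin, was at 1.16 ± 0.245 CPM in control and 1.62 ± 0.306 CPM in nlsYAP5SA, with an adjusted p of 0.157 by edgeR.

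In the reelin pathway of Lrp8 and Vldlr 2 of 16 genes rose and 1 fell, with a median of -0.03. Thbs1, a matrix protein that can bind both receptors, rose from 10.9 ± 2.14 to 73.0 ± 24.7 CPM (SD, n = 5 each), or by 2.75 on the log2 scale (SE 0.24, edgeR adjusted p of 1.59e-05). Dab1, the adaptor that both receptors share, rose from 92.6 ± 3.75 to 103.9 ± 2.71 CPM, or by 0.16 on the log2 scale (edgeR adjusted p of 0.0307). Rap1a, a small GTPase downstream of it, fell from 61.2 ± 0.935 to 55.5 ± 1.99 CPM (edgeR adjusted p of 0.0491). None of the nlsYAP5SA mice overlapped the controls in these 3 genes. Reln itself was at 99.3 ± 11.1 CPM in control and 96.7 ± 17.1 CPM in nlsYAP5SA, with a log2 fold change of -0.04 (SE 0.11). Pafah1b1, the LIS1 gene and the one with the highest mean CPM of the list, was at 764 ± 78.6 and 799 ± 28.7 CPM in these groups.

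Among Wnt co-receptor partners 3 of 24 tested rose and 2 fell, with a median of 0.11. Rspo1, a secreted enhancer of Wnt signalling, rose from 3.03 ± 0.264 to 5.28 ± 0.757 CPM (SD, n = 5 each; edgeR adjusted p of 0.000998). The Frizzled receptor genes Fzd5 and Fzd1 rose by log2 fold changes of 0.45 and 0.33, and Fzd10 fell by 0.45 on the same scale. Csnk1g2, a kinase that phosphorylates Lrp6, fell by 0.27 on the log2 scale. Gsk3b, a kinase of the Wnt pathway with the highest mean CPM of the list, was at 355 ± 50.6 CPM in control and 359 ± 31.3 CPM in nlsYAP5SA. In the agrin pathway 1 of 4 tested genes rose: Musk, the kinase that Lrp4 activates at the muscle synapse, went from 1.13 ± 0.226 to 2.16 ± 0.442 CPM (edgeR adjusted p of 0.00864), while Agrn was at 210.2 ± 6.31 and 200.4 ± 14.1 CPM.

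The remaining lists held few calls. The list on shedding and intramembrane cleavage holds proteases and an inhibitor of them, and 2 of its 14 genes rose with none lower and a median of 0.06. Timp3, an inhibitor of shedding metalloproteases, rose from 120.3 ± 7.11 to 227 ± 27.3 CPM without overlap (SD, n = 5 each; edgeR adjusted p of 1.66e-05), and Mmp14, a membrane metalloprotease, rose by a log2 fold change of 0.28. Bace1, a protease with the highest mean CPM of the list over the 13 mice, was at 165 ± 11.1 CPM in control and 165.5 ± 2.87 CPM in nlsYAP5SA. Of 11 VPS10 receptors and retromer components 1 fell, the sorting adaptor Gga3, from 39.6 ± 2.74 to 33.9 ± 1.42 CPM (edgeR adjusted p of 0.0285), and Sort1 was at 319.7 ± 44.6 and 319.4 ± 19.97 CPM. None of 16 chaperones, adaptors and degradation factors and none of 7 other relatives passed, with medians of -0.02 and -0.05. Apba1 had the highest mean CPM of the former, with 429 ± 12.4 and 389 ± 15.9 CPM (edgeR adjusted p of 0.0658). Lrp11 had that of the latter, with 146 ± 5.24 and 136 ± 6.53 CPM.

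Cell type markers moved in the same hemispheres. Genes of reactive astrocytes rose in 8 of 8 cases (median log2 fold change 1.77, summed level 207 to 253 CPM in control and 786 to 1020 CPM in nlsYAP5SA), and microglial genes in 11 of 12 (median 0.80, 362 to 446 and 564 to 737 CPM). Astrocyte genes rose in 3 of 10 cases (median 0.28), radial glial genes in 4 of 11 (median 0.10) and simple epithelial genes in 3 of 6 tested (median 1.19), with none lower. Endothelial genes gave 1 higher and 2 lower of 10 (median -0.24), and mural and fibroblast genes gave 3 higher and 3 lower of 10 (median 0.01). Oligodendrocyte genes gave 1 lower of 9, with 0 higher by mean, a median log2 fold change of -0.58 and a summed level of 2158 to 3613 CPM in control and 1387 to 2973 CPM in nlsYAP5SA. Oligodendrocyte precursors gave 2 lower of 7 (median -0.15), excitatory neurons 2 lower of 12 (median -0.14), interneurons 1 lower of 10 (median 0.07) and Cajal-Retzius cells 0 of 7 (median -0.04), with none higher. Over all genes 7.36% rose and 3.44% fell. The part of these cells in the levels of the receptors and their ligands was not tested. Neurod6, whose locus carries Cre, was at 91.5 to 110 CPM in control and 38.9 to 56.8 CPM in nlsYAP5SA, and Yap1 at 19.96 to 22.3 and 22.6 to 26.6 CPM, so both followed the labels.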

How the data were processed

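Per the labels and methods, CutAdapt 1.5 trimmed the authors' reads, STAR mapped the trimmed reads on GRCm38 (Ensembl release 86) and SAMtools 1.8 merged files. The deposited values are estimated counts per gene from RSEM 1.3.0, not normalised, with reads that match several genes shared among them. The strand setting is not given in the sources used here. All 13 libraries were used.

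Estimated counts were rounded. Genes were kept by filterByExpr (minimum count 10, minimum total 15), scaled by TMM and tested with edgeR 4.0.16 in R 4.3.3, using the quasi-likelihood test, two-sided, between the groups compared, with p-values adjusted after Benjamini-Hochberg over the whole table of tested genes, and calls at 0.05 or less. Approximate 95% intervals were taken from the SE and the normal distribution. CPM were scaled over 13 libraries and 16943 genes. Positions and lengths are from GENCODE M21, a later release than the one counted on. The scripts were tested on simulated data, in which the changed genes had higher control counts than Lrp2 had here, so its call was not covered.

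The members and all lists were chosen with earlier results of these data known. The genes named were the members, up to 3 called genes with the largest change and the gene with the highest mean CPM of each partner list, the 5 nearest profiles to a called member with an absolute log2 fold change of at least 1, Yap1, Neurod6 and Ttr; a gene that the rule names is not reported here. Reln, Cubn, Apoe, Clu, Bmp4, Fzd1, Csnk1g2, Lpl, Ptn, Calr, Enpp2 and the called choroid plexus and ependymal genes were named after their values were seen. Alternatives were DESeq2 1.42.0 (also its size factors), library size alone, other filters, all 13 samples in 1 fit, a replicate block, Y-linked and Ttr covariates, a GC and length offset, exon-union lengths and leaving out each mouse. The robust loess offset and the restriction to mice with Y-linked transcripts (summed level of 4 genes above 10 CPM) were added after the data were seen, as were further settings for the partner count.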

Additional observations from a re-analysis of the deposited data

How the results depend on the processing

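Lrp2 was called higher than control under all 22 alternatives that tested it, with log2 fold changes from 1.86 (DESeq2 with a prior) to 3.58 (Ttr covariate) and 3.27 to 3.52 when 1 mouse was left out. A filter of 10 counts in every sample, which drops Lrp2, left 0 members called against control and 0 against C57BL/6. The GC and length offset gave 3 members in both comparisons, with either loess fit (Lrp2, Lrp4 and Lrp5). Calls over all genes also rose, to 3057 (ordinary) and 2461 (robust) from 1761 of 16315 against control. Against C57BL/6 they rose to 2035 and 1727 from 1061 of 16641. Against C57BL/6, DESeq2 gave 2 members without and 2 with the prior, and the fit of all 13 samples gave 2 (Lrp2 and Lrp5 in each). Over all genes these settings gave 1596, 1587 and 1522 calls, more than the 1061 of the main fit. Leaving out 1 mouse gave 1 to 2 members in both comparisons, with 2 against control without nlsYAP5SA replicate 4, and 20 to 30 called partner genes. Without that replicate 1891 of 16432 genes passed against control. The partner count was 9 with the Y-linked covariate and 7 in mice with Y-linked transcripts.

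The replicate numbers did not pair the mice: same-numbered nlsYAP5SA and control mice had correlations of deviations from -0.315 to 0.312, and the labels name no shared litter. With the replicate block Lrp2 stayed called against control (3.35, edgeR adjusted p of 9.73e-05) with 24 partner genes, and 0 members were called against C57BL/6, where Lrp2 had 3.31 and an adjusted p of 0.0895 by edgeR. In C57BL/6 against control the block turned Lrp1b to -0.065, Lrp4 to 0.078 and Lrp6 to 0.084.

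No called change of a member turned direction. Changes that had not passed the test did, as log2 fold changes, and the cause was not tested. In nlsYAP5SA against control, mice with Y-linked transcripts gave Lrp1 -0.0071, Lrp1b 0.042 and Vldlr 0.019, the Y-linked covariate Lrp1b 0.060 and Vldlr 0.031, and the Ttr covariate Lrp1b 0.085, Lrp8 0.0004 and Vldlr 0.022. Leaving out 1 mouse gave Lrp1 -0.0032 to 0.091, Lrp1b -0.17 to 0.059, Vldlr -0.075 to 0.030 and Sorl1 -0.047 to 0.15. In C57BL/6 against control, the offset gave Lrp1b -0.021 and Lrp6 0.035 (ordinary) and -0.016 and 0.034 (robust), mice with Y-linked transcripts Lrp1 0.18, Lrp2 0.11, Lrp6 0.11, Lrp8 0.037 and Vldlr 0.045, the Y-linked covariate 0.17, 0.063, 0.12, 0.031 and 0.045 for the same genes, and the Ttr covariate Lrp6 0.025. Leaving out 1 mouse gave Lrp1 -0.45 to 0.18, Lrp1b -0.57 to 0.26, Lrp2 -0.67 to 0.11, Lrp6 -0.20 to 0.11, Lrp8 -0.18 to 0.037, Vldlr -0.20 to 0.045 and Sorl1 -0.20 to 0.22. In nlsYAP5SA against C57BL/6, the offset gave Vldlr -0.044 (ordinary) and -0.026 (robust), mice with Y-linked transcripts Lrp1 -0.19, Lrp6 -0.052 and Vldlr -0.030, the Y-linked covariate Lrp1b 0.065 and Lrp8 0.041, and Lrp8 was 0.0047 with all 13 samples, 0.020 with library size alone and 0.0037 without a filter. Leaving out 1 mouse gave Lrp1 -0.14 to 0.46, Lrp1b -0.32 to 0.48, Lrp8 -0.096 to 0.090, Vldlr -0.058 to 0.15 and Sorl1 -0.16 to 0.23.

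With 3 to 16 counts per library outside nlsYAP5SA, the fold change of Lrp2 rests on few reads in these groups.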
